A study of Mus musculus with 8 samples.

Results

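Aquaporins are channel proteins that let water, and in some members glycerol and other small solutes, cross cell membranes along an osmotic gradient. The members described here are the 10 genes Aqp1, Aqp2, Aqp3, Aqp4, Aqp5, Aqp6, Aqp7, Aqp8, Aqp9 and Aqp11. They were taken by gene symbol from the 54532 genes of the deposited read count table, with earlier results of these data known. The family is usually divided into water channels (Aqp1, Aqp2, Aqp4, Aqp5, Aqp6 and Aqp8), aquaglyceroporins, which also pass glycerol (Aqp3, Aqp7 and Aqp9), and divergent intracellular members (Aqp11). In the tooth, secretory stage ameloblasts lay down a water-rich protein matrix, and in the maturation stage that matrix is degraded and water is removed while the mineral grows.

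The libraries were made from first molars of untreated wt C57BL/6 mouse pups at P5 (secretory stage) and P12 (maturation stage). Soft tissue was cleared from the pulp chambers, the rest of the molars was homogenized, 5 pups made up a pool, and 4 pools were sequenced at each age after polyA selection. The comparison asks which of these genes differ between the stages. The labels call the material epithelial cells of the enamel organ and the study's methods describe pooled enamel organs, while by the extraction protocol it was the remaining molar that was homogenized, so that fewer cells of a type and less RNA per cell cannot be told apart for any gene below.

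Total counts ranged from 16574548 to 22013456 reads per library. A floor of 3 counts corresponded to 0.136 to 0.181 CPM (counts scaled by library total), and this floor covers counting error only. Markers of both stages went with the labels, since 4 of 4 secretory ameloblast markers fell, 5 of 5 maturation ameloblast markers rose, and all 5 dental epithelium markers were measured, 3 of them higher and 1 lower at P12. Of 10 mesenchyme and odontoblast markers, 3 were higher and 4 were lower at P12, and their summed normalized count was between 911274 and 1239040 in all libraries. P12 replicate 4 differed most from the other libraries of its age, with chi-square per degree of freedom of up to 74.6 against it, where the closest pair of libraries gave 4.76. The maturation ameloblast markers summed to 12880 normalized counts in P5 replicate 5 and to between 36789 and 44228 in P5 replicates 1, 3 and 4. Without both of these libraries Aqp1, Aqp3 and Aqp11 were still called higher and Aqp4 lower.

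Of the 10 aquaporins, 5 had enough reads to be tested between the ages and 5 did not. Aqp1, Aqp3 and Aqp11 were upregulated at P12, Aqp4 was lower at P12, and Aqp9 did not pass the test. The quasi-likelihood test of edgeR was used, and every adjusted p below is a Benjamini-Hochberg value from it over 16440 genes, with a call at an adjusted p under 0.05, unless another tool is named. The same test called 28.8% of all genes higher and 28.4% lower at P12, so that a change between these ages was common in the whole table. Scaled by total count, 8885 genes were higher and 2330 were lower. For 3 of the 5 tested members no library of one age fell within the range of the other, which was so for 52.5% of all genes tested. Aqp2, Aqp5, Aqp6, Aqp7 and Aqp8 were too low to test, and of these Aqp5 alone had more than 6 reads in any library.

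**Figure D1:**
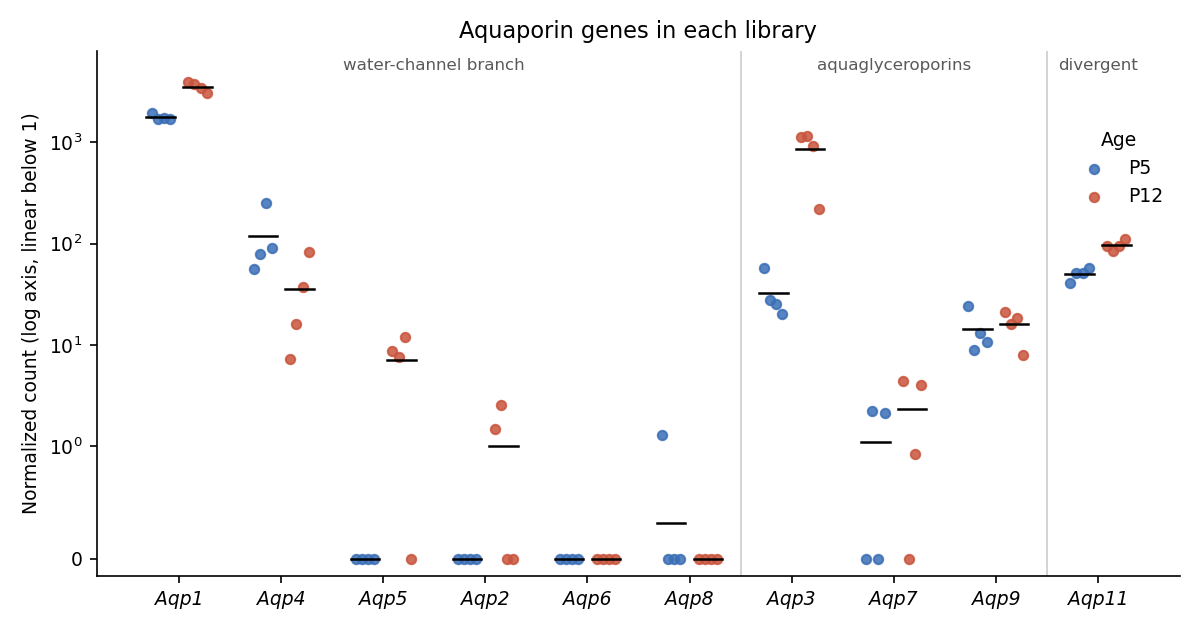
Normalized read count of each aquaporin gene (y axis, logarithmic and linear below 1) in the 4 P5 and 4 P12 libraries, 1 point per library, with a bar at the mean of each age. Aqp1, Aqp3 and Aqp11 had all P12 points above all P5 points, and Aqp6 lay at 0 in all libraries.

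The promoters of Aqp1, Aqp3 and Aqp11 are shown because these 3 genes were called higher at P12. They did not move alike across the P12 libraries, where replicate 4 was lowest for Aqp1 and Aqp3 and highest for Aqp11. They are RefSeq sequences of GRCm38.p6, from 250 bases before to 50 bases after the start of transcription, on the strand of the gene. Capitals mark the motifs found, on either strand, in a search for 5 motifs. TATAAA, the TATA box, was present in 13.6% of the 32851 promoters of this length, and CCAAT, the CAAT box, in 37.4% of them. The GC box was searched as GGGCGG and was in 35.7%. The AP-1 motif was searched as TGANTCA and was in 7.81%, and the E-box was searched as CACGTG and was in 7.15%. The window of Aqp1 is chr6:55336049-55336348 (+), that of Aqp3 is chr4:41098134-41098433 (-) and that of Aqp11 is chr7:97738198-97738497 (-).
Aqp1: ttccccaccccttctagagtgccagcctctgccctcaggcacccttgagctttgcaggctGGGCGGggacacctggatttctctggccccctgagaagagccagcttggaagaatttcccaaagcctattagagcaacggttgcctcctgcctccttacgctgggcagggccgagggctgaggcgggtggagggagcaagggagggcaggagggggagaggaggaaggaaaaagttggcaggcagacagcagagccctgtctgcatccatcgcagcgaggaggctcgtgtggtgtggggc
Aqp3: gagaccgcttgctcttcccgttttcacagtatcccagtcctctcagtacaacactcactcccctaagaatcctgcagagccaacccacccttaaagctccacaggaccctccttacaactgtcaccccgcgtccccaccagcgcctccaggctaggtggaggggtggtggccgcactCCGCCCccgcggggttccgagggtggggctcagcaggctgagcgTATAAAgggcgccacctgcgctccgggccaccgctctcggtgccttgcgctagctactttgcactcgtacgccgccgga
Aqp11: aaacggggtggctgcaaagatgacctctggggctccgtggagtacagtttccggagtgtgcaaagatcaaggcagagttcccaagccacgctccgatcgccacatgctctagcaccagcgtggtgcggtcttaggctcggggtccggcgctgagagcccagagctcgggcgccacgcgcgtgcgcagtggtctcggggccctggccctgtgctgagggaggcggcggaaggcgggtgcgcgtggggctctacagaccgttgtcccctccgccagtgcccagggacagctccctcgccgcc

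Aqp3 had a TATA box at position -29 and a GC box at position -73 from the start, and Aqp1 had a GC box at -190. None (0) of the 5 motifs was found in the window of Aqp11, so that none was present in all 3 promoters. The windows of Aqp1, Aqp3 and Aqp11 held 8, 21 and 27 CpG dinucleotides, against a median of 7 over all promoters. The window of Aqp1 ends upstream of the gene start in the deposited table. Promoters were matched by symbol for 9 of the 10 members, 11 windows in all.

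Among the water channels, Aqp1 was the most abundant aquaporin at both ages. It is a constitutively open water channel of red blood cells, kidney proximal tubules and capillary endothelium. In GRCm38 the gene (ENSMUSG00000004655) spans positions 55336432 to 55348555 of chromosome 6, forward strand, and 0% of its exon sequence is shared with another gene. Its normalized count was 1942, 1698, 1729 and 1705 in P5 replicates 1, 3, 4 and 5, and 3932, 3729, 3458 and 3078 in P12 replicates 1 to 4. The lowest P12 library was well above the highest P5 library. The mean rose from 1769 ± 117 to 3549 ± 369 (SD, n = 4 pools each), a 2.01-fold difference (log2 fold change 1.01 ± 0.08 SE, adjusted p = 1.7e-06, edgeR). Its read counts, between 1312 and 5363 per library, made it the best measured member of the family.

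Markers of endothelium were higher at P12, as Aqp1 was, but followed it only in part within an age. Of 10 endothelial markers, including Pecam1 and Cdh5, 9 rose and Cldn5 did not pass the test. Their summed normalized count was 3899 to 4823 at P5 and 7656 to 8263 at P12, a 1.90-fold difference between the means. Aqp1 amounted to 424 ± 56.3 (SD, n = 4) per 1000 normalized counts of these markers at P5 and to 445 ± 47.8 (SD, n = 4) at P12. The ranges of this ratio, 354 to 490 and 376 to 478, overlapped. Aqp1 and the endothelial sum had the same order over P12 replicates 1 to 3, and both were lowest at P5 in replicate 3. Against that, P12 replicate 4 had the lowest Aqp1 count of its age and an endothelial sum of 8186, the second highest. P5 replicate 5 had the highest P5 sum, 4823, with an Aqp1 count of 1705. The 9 erythroid markers did not rise with Aqp1 between the ages. Their sum was 19587 to 38397 at P5 and 19172 to 23839 at P12, 2 of them fell and 7 did not pass the test. Within P12 their sum ranked the libraries as Aqp1 did, at 23839, 23349, 22603 and 19172 in replicates 1 to 4, and within P5 it did not. This P12 order was not particular to erythroid markers. The sums of neutrophil, mesenchyme and odontoblast, and adipocyte markers had it too, and the neutrophil sum was also higher at P12. Aqp1 per 1000 counts of erythroid markers was 44.2 to 87.1 at P5 and 153 to 165 at P12. The part of endothelium or red blood cells in the values of Aqp1 was not tested.

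Aqp4 was the only tested member that was lower at P12. It is the water channel of astrocyte end-feet and of fast-twitch muscle fibres, where it is held at the membrane by the dystrophin complex. The deposited table places the gene (ENSMUSG00000024411) at positions 15389394 to 15403684 of chromosome 18, reverse strand, which are not its coordinates in GENCODE M21 (GRCm38). Its normalized count was 56.6, 78.3, 250 and 91.0 in P5 replicates 1, 3, 4 and 5, and 7.33, 16.0, 37.1 and 82.3 in P12 replicates 1 to 4. The ages overlapped, because P12 replicate 4 lay above the lowest 2 P5 libraries. The mean was 119 ± 88.7 at P5 and 35.7 ± 33.5 at P12 (SD, n = 4 each), with a log2 fold change of -1.77 (95% interval -3.18 to -0.36, adjusted p = 0.034, edgeR). The call was lost with DESeq2 (adjusted p = 0.056), with total count scaling (adjusted p = 0.065) and without P5 replicate 4, where the log2 fold change was -1.12 (adjusted p = 0.15). It was also lost without P12 replicate 1, 2 or 3 (adjusted p = 0.066, 0.086 and 0.068), whereas without P12 replicate 4 it was -2.60 (adjusted p = 0.0017).

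The sum of the skeletal muscle markers was highest, within each age, in the library where Aqp4 was highest, but the single markers were not all so. Their summed normalized count was 1529 in P5 replicate 4 and 918 to 1367 in the other P5 libraries. At P12 it was 1739 in replicate 4, of which 1111 came from Myh4 alone, and 907 to 1194 in the others. Without Myh4 the P12 sums of replicates 3 and 4 were 623 and 627. Of the 9 markers tested, 6 were highest in P5 replicate 4 at P5, and 3 were highest in P12 replicate 4 at P12, where Mylpf was lowest. Of the 10 markers in the list 3 rose, among them the fast myosin genes Myh4 and Myh1, 5 fell, among them Acta1 and Ckm, and Tnnc2 was at 0 in every library. Aqp4 per 1000 counts of muscle markers was 53.8 to 164 at P5 and 8.08 to 47.3 at P12. Without Myh4, an alternative added after the data were seen, these ranges were 62.6 to 193 and 13.7 to 131 and overlapped. Schwann cell markers went the other way from Aqp4, with 5 of 8 higher and 1 lower and sums of 883 to 1198 at P5 and 1342 to 1913 at P12. The sum of the secretory ameloblast markers, which fell with age, was also highest in P5 replicate 4 and in P12 replicate 4. At P12 it ranked the libraries as Aqp4 did, at 237041, 264278, 433633 and 621683 in replicates 1 to 4. The maturation ameloblast sum, which rose with age, had the same P12 order, at 356963, 442551, 458253 and 482565. So did the muscle sum, with and without Myh4. The part of muscle, nerve or ameloblast stage in the values of Aqp4 was not tested.

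Aqp5, the apical water channel of salivary gland acini and other secretory epithelia, had 0 reads in all 4 P5 libraries and 12, 9, 13 and 0 reads in P12 replicates 1 to 4. Reads were thus found in 3 of 4 P12 libraries, and P12 replicate 4 was at 0 like the P5 libraries. The gene (ENSMUSG00000044217) spans positions 99590782 to 99594829 of chromosome 15, forward strand. Its mean normalized count of 7.11 ± 5.10 (SD, n = 4) at P12 was 1.98 times a floor of 3 counts in each P5 library. This ratio allows for counting error at P5 only, not for the spread of the P12 libraries. Aqp5 did not pass the filter on low counts. In an added edgeR fit without that filter, chosen after the data were seen, which called 31.7% of 31604 genes, its adjusted p was 0.0024. Salivary acinar markers were scarce in these libraries: of 12, 7 had at most 3 reads in any library, Smr3a, Smgc and Prb1 had 0 in every library, and their sum was 42.3 to 76.5 at P5 and 13.5 to 74.1 at P12. The only 1 that could be tested, Bhlha15, was lower at P12.

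The remaining water channels were at or near 0 reads. Aqp2, the vasopressin-regulated channel of the kidney collecting duct, had 0 reads at P5 and 2, 3, 0 and 0 reads in P12 replicates 1 to 4. Aqp8, which passes water and ammonia, had 1 read in P5 replicate 1 and 0 in the other 7 libraries. Aqp6, an anion-permeable channel of intracellular vesicles in the kidney, had 0 reads in every library. At this depth a change in Aqp2, Aqp6 or Aqp8 between the ages was not detectable. In the edgeR fit without a filter the adjusted p was 0.19 for Aqp2, 0.41 for Aqp8 and 0.55 for Aqp7.

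Aqp2, Aqp5 and Aqp6 lie next to each other on the forward strand of chromosome 15. The gap between Aqp2 and Aqp5 is 6.24 kb and that between Aqp5 and Aqp6 is 6.57 kb, with no annotated gene in either. Of this cluster the middle gene alone had more than 3 reads in any library. The RefSeq promoter of Aqp5 held 46 CpG dinucleotides in 300 bases, more than 98.4% of all promoters, against 8 for Aqp2 and 4 for Aqp6.

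Among the aquaglyceroporins, Aqp3 had the largest change of the family. It passes water and glycerol through the basal keratinocyte membrane and maintains the hydration of the epidermis. In GRCm38 the gene (ENSMUSG00000028435) spans positions 41092722 to 41098183 of chromosome 4, reverse strand, and no exon of it is shared with another gene. Its read counts were 45, 25, 19 and 19 in P5 replicates 1, 3, 4 and 5, and 1540, 1359, 996 and 220 in P12 replicates 1 to 4. The normalized counts, in the same order, were 57.9, 27.9, 25.0 and 20.1 for P5, and 1129, 1147, 923 and 221 for P12. P12 replicate 4 was at 0.21 times the mean of the other P12 libraries, and it still exceeded all P5 libraries. The mean rose from 32.7 ± 17.1 to 855 ± 435 (SD, n = 4 pools each), or by 4.73 ± 0.53 (SE) on the log2 scale (adjusted p = 1.9e-05, edgeR), which is 26.5-fold. Without P12 replicate 4 the log2 fold change was 5.04, with a standard error of 0.20.

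Genes of oral stratified epithelium moved with Aqp3 in direction, and their sum ranked the P12 libraries in the same order as Aqp3 did. All 12 such markers in the list, including Krt13, Krt4 and Krt6a, rose. Their summed normalized count was 2041 to 2700 at P5, and 56055, 68322, 45307 and 14446 in P12 replicates 1 to 4, so that P12 replicate 4 was the lowest for both. Aqp3 amounted to 13.5 ± 5.35 (SD, n = 4) per 1000 counts of these markers at P5 and 18.1 ± 2.51 (SD, n = 4) at P12, and the ranges of 9.85 to 21.4 and 15.3 to 20.4 overlapped. The sums of the osteoclast and macrophage markers were also higher at P12 and ranked the P12 libraries in that order. The dental epithelium markers differed less between the P12 libraries, with a sum of 263986 in replicate 4 and 302758 to 328910 in the others. The part of oral mucosa in the rise of Aqp3 was not tested.

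**Figure D2:**
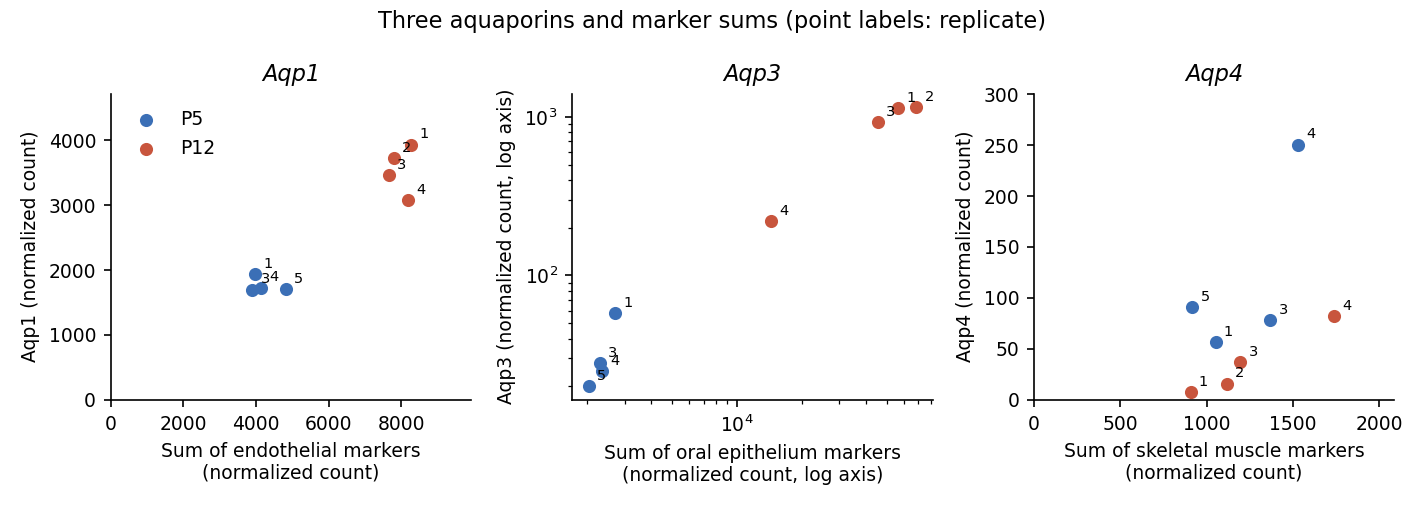
Normalized count of Aqp1, Aqp3 and Aqp4 (y axes) against the summed normalized count of endothelial, oral stratified epithelium and skeletal muscle markers (x axes), with both axes logarithmic in the middle panel, 1 point per library labelled by replicate number. The Aqp1 and endothelial values separated the ages in the same way, P12 replicate 4 was the lowest P12 library for Aqp3 and for the oral markers, and P5 replicate 4 and P12 replicate 4 were the highest of their ages for Aqp4 and for the muscle sum, which in P12 replicate 4 was mostly Myh4 (1111 of 1739).

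Aqp9, which takes up glycerol in the liver and is also found in leukocytes, was measured at a low level at both ages. It (ENSMUSG00000032204) spans positions 71110659 to 71168682 of chromosome 9, reverse strand. Its read counts were 19, 8, 10 and 10 in P5 replicates 1, 3, 4 and 5, and 29, 19, 20 and 8 in P12 replicates 1 to 4. The ages overlapped over nearly their whole range. The normalized count was 14.3 ± 6.98 at P5 and 16.0 ± 5.70 at P12 (SD, n = 4 each), with a log2 fold change of 0.19 (95% interval -0.69 to 1.08, adjusted p = 0.70, edgeR). The interval holds changes of up to 1.08 on the log2 scale, so that a rise of the size seen for Aqp1 lies within it. Marker sums of blood and bone cells differed between the ages where Aqp9 did not pass the test. Of 8 osteoclast markers 7 were tested and 7 rose, with sums of 1433 to 2445 at P5 and 4477 to 11033 at P12. Of 10 neutrophil markers 7 rose and 1 fell, with sums of 2372 to 3080 and 3670 to 4875. Of 8 macrophage markers 5 rose, with sums of 1515 to 1833 and 1880 to 2541. Within each age the neutrophil sum and Aqp9 were both highest in replicate 1. The macrophage sum was highest there only at P5, and the osteoclast sum at neither age. Aqp9 per 1000 counts of neutrophil markers was 3.47 to 7.93 at P5 and 2.19 to 4.54 at P12, which overlapped. The part of blood or bone cells in the values of Aqp9 was not tested.

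Aqp7, the channel through which fat cells release glycerol, had 0, 2, 0 and 2 reads in P5 replicates 1, 3, 4 and 5, and 6, 0, 1 and 4 reads in P12 replicates 1 to 4. These counts lay around the floor, and a change was not detectable at this depth. Markers of adipocytes were low as well, with 1 of 7 testable and sums of 14.1 to 35.6 at P5 and 13.1 to 24.2 at P12. Aqp7 lies 44.58 kb from Aqp3 on the same strand of chromosome 4, with no protein-coding gene between them, so that 1 of these neighbours rose by over 4 log2 units while the other stayed near the floor.

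Aqp11 is a divergent member of the endoplasmic reticulum that is required in kidney proximal tubules. In GRCm38 the gene (ENSMUSG00000042797) spans positions 97724006 to 97738289 of chromosome 7, reverse strand, and no exon of it is shared with another gene. Its normalized count was 41.1, 51.4, 51.4 and 57.2 in P5 replicates 1, 3, 4 and 5, and 93.8, 84.4, 94.5 and 110 in P12 replicates 1 to 4. The ages were apart and the libraries of each age were close together. The mean rose from 50.3 ± 6.67 to 95.8 ± 10.8 (SD, n = 4 pools each), a 1.90-fold difference (log2 fold change 0.92 ± 0.17 SE, adjusted p = 8.1e-04, edgeR). Unlike Aqp3, Aqp11 was highest at P12 in replicate 4, and its log2 fold change without that library was 0.85.

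**Figure D3:**
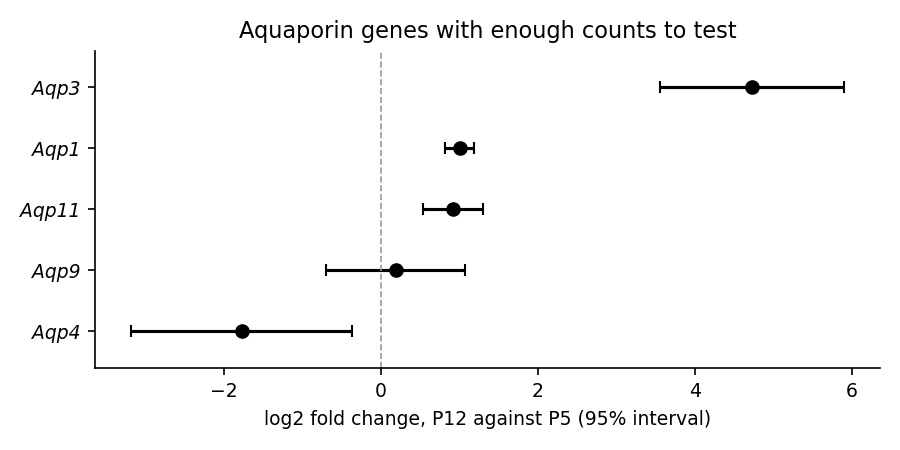
Log2 fold change of P12 against P5 (x axis) for the 5 aquaporin genes that could be tested, with 95% intervals from edgeR's quasi-likelihood fit. Aqp3 lay at 4.73, Aqp1 and Aqp11 lay close to each other at 1.01 and 0.92, the interval of Aqp9 included 0, and Aqp4 lay at -1.77.

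Levels were compared between genes as normalized counts per kilobase of gene length. At P5 Aqp1 stood far above the others at 673 ± 44.4 (SD, n = 4) per kilobase. Aqp4 followed at 23.4 ± 17.5, Aqp3 at 17.9 ± 9.32, Aqp11 at 5.34 ± 0.71 and Aqp9 at 3.45 ± 1.69 (SD, n = 4 each). Aqp4 and Aqp3 overlapped between libraries, as did Aqp11 and Aqp9, and the other steps in this order did not. At P12 Aqp1 was at 1351 ± 141 per kilobase, Aqp3 at 467 ± 238, Aqp11 at 10.2 ± 1.15, Aqp4 at 7.02 ± 6.59 and Aqp9 at 3.85 ± 1.38 (SD, n = 4 each). Aqp1 was above Aqp3 and Aqp3 above Aqp11 in every P12 library, whereas from Aqp11 downward the neighbours overlapped. Aqp1 lay above 93.8% of all genes tested per kilobase at P5 and above 97.4% at P12, and Aqp3 moved from above 23.6% to above 90.5%.

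The summed level of the 10 genes per kilobase was 724 ± 50.5 at P5 and 1844 ± 368 at P12 (SD, n = 4 each). Aqp1 made up 93.0% ± 1.97 of that sum at P5 and 74.6% ± 9.32 at P12 (SD, n = 4). The share of Aqp3 was 2.42% ± 1.07 at P5 and 23.9% ± 9.94 at P12 (SD, n = 4). In P12 replicate 4 these shares were 88.5% for Aqp1 and 9.12% for Aqp3, closer to the P5 libraries than to the other P12 libraries.

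**Figure D4:**
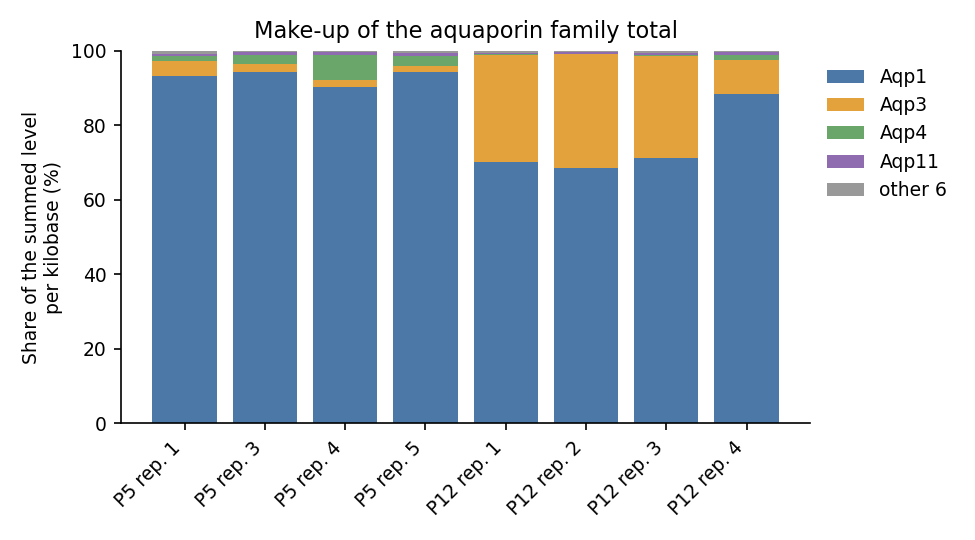
Share of each aquaporin in the summed family level per kilobase (y axis, percent) in each of the 8 libraries (x axis). Aqp1 took 90.2% to 94.4% at P5 and 68.7% to 88.5% at P12, where Aqp3 took most of the rest.

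Genes for cell volume and osmolyte control act beside water channels. Of 15 such genes 14 were tested, 5 rose and 5 fell, beside 28.8% higher and 28.4% lower over all genes tested, with a median log2 fold change of 0.10 against 0.01 over all genes tested. The fall was largest in subunits of the volume-regulated anion channel. Lrrc8d fell from 1836 ± 89.8 to 405 ± 26.9 normalized counts (log2 fold change -2.18, adjusted p = 1.5e-09, edgeR), and Lrrc8c fell from 1560 ± 33.0 to 534 ± 35.3 (log2 fold change -1.55; SD, n = 4 each). Lrrc8b, another subunit, rose from 1371 ± 103 to 2455 ± 39.5 (log2 fold change 0.84). Stk39, the kinase SPAK that regulates ion cotransporters during volume changes, rose from 245 ± 34.0 to 1033 ± 83.5 (log2 fold change 2.08, adjusted p = 3.6e-08). Scaled by total count, 8 of these genes were higher and 2 were lower, beside 8885 higher and 2330 lower of all 16440 genes tested.

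Genes of glycerol metabolism, the pathway that aquaglyceroporins feed, were higher or did not pass the test. Of 9 tested, 5 rose, beside 28.8% of all genes tested, with a median log2 fold change of 0.74. Gpd2, the mitochondrial glycerol 3-phosphate dehydrogenase, rose from 215 ± 29.0 to 755 ± 74.2 normalized counts (log2 fold change 1.81, adjusted p = 1.4e-07, edgeR). Dgat2, which makes triglycerides, rose from 82.2 ± 22.7 to 254 ± 130 (log2 fold change 1.63, adjusted p = 0.0039), with overlap between the ages. The kinase Gk, which phosphorylates glycerol and was singled out after its values were seen, rose from 59.1 ± 7.66 to 122 ± 22.0 (SD, n = 4 each). Scaled by total count, 8 of the 9 were higher, beside 8885 of all 16440 genes tested.

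Genes for trafficking and anchoring place aquaporins in the membrane. Of 10 such genes 9 were tested, 6 fell and 1 rose, beside 28.4% lower and 28.8% higher over all genes tested, with a median log2 fold change of -0.24. At an adjusted p under 0.01, 2 of the 6 falls remained, beside 3709 genes lower of all 16440 tested. The dystrophin gene Dmd, whose protein complex anchors Aqp4, fell from 1129 ± 156 to 534 ± 128 normalized counts (log2 fold change -1.08, adjusted p = 1.2e-04, edgeR). Adcy6, an adenylyl cyclase of the cAMP signal that moves Aqp2 to the membrane, fell from 2094 ± 148 to 1237 ± 157 (log2 fold change -0.76). The syntrophin gene Sntb1 rose from 417 ± 48.4 to 574 ± 35.1 (log2 fold change 0.46; SD, n = 4 each). The vasopressin receptor gene Avpr2, upstream of Aqp2, had at most 6 reads in any library. Scaled by total count, 2 were higher and 2 were lower, beside 8885 higher and 2330 lower of all 16440 genes tested.

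**Figure D5:**
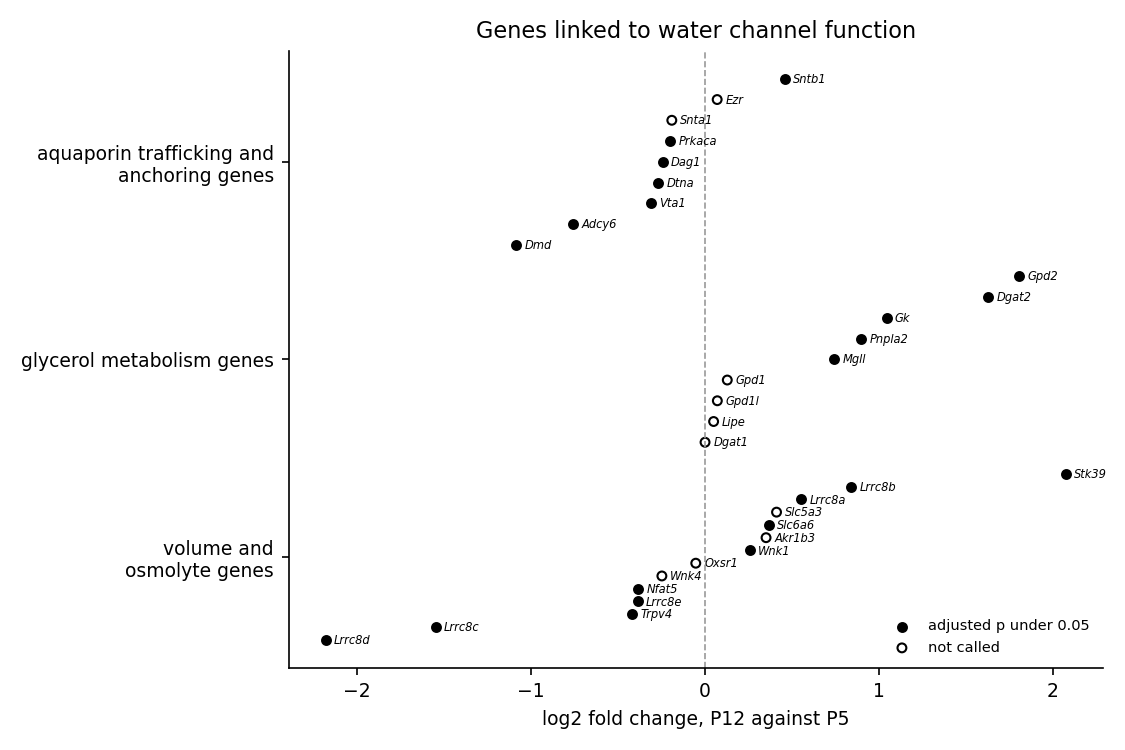
Log2 fold change of P12 against P5 (x axis) for every tested gene of 3 lists linked to water channel function (y axis), filled where the adjusted p was under 0.05. Lrrc8d at -2.18 and Stk39 at 2.08 were the extremes, and the glycerol metabolism genes lay between 0.00 and 1.81.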

How the data were processed

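RNA was purified from pools of molars, selected by polyA capture and sequenced. The authors deposited whole-number read counts per gene, without normalization, with gene names, lengths (in bases, as given) and coordinates. The aligner and counting program are not given in the sources used here. The submitters' processing notes name CASAVA and mm39, but of the 54532 gene identifiers 54495 are in GENCODE M21 (GRCm38) and 53585 have its coordinates. Aqp4 has others there, and coordinates are those of the table.

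Genes were compared by edgeR 4.0.16 in R 4.3.3 with filterByExpr, TMM scaling and the quasi-likelihood F test on age alone, and p-values were adjusted over 16440 genes (Benjamini-Hochberg). Normalized counts are counts scaled to the mean effective library size, 19006280. DESeq2 1.42.0, which the study's methods name, and limma-voom (limma 3.58.1) were alternatives, besides other scalings, filters, thresholds, left-out libraries and a replicate block. Libraries were assigned by title, and all 12 pairs within an age differed beyond counting noise. The members and gene lists were chosen with earlier results of these data known. All members are named, and from each related list the 2 largest called rises and falls with a mean normalized count of at least 100.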

Additional observations from a re-analysis of the deposited data

Results flagged for a closer look

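For Aqp1, P5 replicate 1 stood apart from the other P5 libraries, with a normalized count of 1942 against 1698 to 1729. Without it the log2 fold change of Aqp1 was 1.05. For Aqp8, P5 replicate 1 held the only read of this gene, a normalized count of 1.29 against 0 in the others. A single read beside libraries at 0 is always flagged in this way, so that the flag carries no information about Aqp8. Of 33 combinations of a gene and an age, 2 had such a distant library, Aqp8 among them. The usual chance rate of about 1 in 20 does not hold for counts near 0.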

How the results depend on the processing

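Aqp1, Aqp3 and Aqp11 were called higher in each of the 18 alternative fits, with log2 fold changes of 0.95 to 1.38, 4.31 to 5.13 and 0.84 to 1.29, and Aqp9 was called in none of its 17 fits, with adjusted p of 0.23 to 0.98 (it could not be fitted where at least 10 reads in every library were asked). A log2 fold change of at least 1 removed Aqp11, at 0.92. Aqp4 lay between -2.60 and -1.12 without 1 library at a time, with 0 to 1 aquaporins called lower. None (0) was lower with DESeq2 (-1.74), total count scaling (-1.42), the 6 libraries with shared numbers (-1.64) or an adjusted p under 0.01 (-1.77). The cause was not tested. The replicate block over the same 6 libraries gave -1.71 for Aqp4 with an adjusted p of 0.0035, but the numbers do not pair the pools: deviations of same-numbered libraries correlated at 0.04, 0.01 and -0.04, and not every library correlated best with its own number. The block changed no other aquaporin call. Total count scaling moved the median over all genes from 0.01 to 0.38 (log2), and it gave 8885 genes higher and 2330 lower, against 4735 and 4676. It gave 8 and 2 volume genes higher and lower, 8 glycerol genes higher, and 2 and 2 trafficking genes higher and lower. With a log2 fold change of at least 1 these were 1, 2, 3, 0 and 1, and 1864 and 1677 over all genes. At an adjusted p under 0.01, 2 trafficking genes were lower, beside 3709 over all genes. Without division by length Aqp11 was the third and Aqp3 the fourth aquaporin at P5. Depth limits Aqp2, Aqp6, Aqp7 and Aqp8, which were at or near the floor.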

Other observations

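The relatives of these genes outside the list were also near 0. Mip, the lens water channel, had at most 2 reads in any library, and Aqp12 had 0 in every library. Of the exonic bases of Mip, 57.0% lie in exons of an antisense gene.

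The genes whose deviations from the age means were most like those of Aqp3 over the 8 libraries were Ccdc85c (Pearson's r = 0.99), Rpl23 (0.99) and Shc1 (0.98), among 11344 genes with a mean normalized count of at least 100. For Aqp1 they were Rps9 (0.98), Mcrip1 (0.98) and Akt1 (0.98). Ccdc85c also followed Aqp3 with the ages included (r = 0.99), whereas the values of the other genes with the ages included were between -0.91 and -0.23. These values rest on 8 libraries that share preparation within an age and are a description only.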
